A study of Equus caballus with 6 samples.

Results

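The testis-specific serine kinases TSSK1B, TSSK2, TSSK3, TSSK4 and TSSK6, their substrate TSKS, the calmodulin-dependent kinase CAMK4 and the germ cell kinase STK31 were examined in stallion testes. Probes were taken where the platform's gene table gave exactly 1 of these 8 symbols. That found 7 probes for 6 genes, of 18278 genes named in this way on the array. No probe is listed for TSSK3 or TSSK6 in the table used here, so neither was analysed. For the 4 genes with measurable probes, TSSK2, TSKS, CAMK4 and STK31, the values of treated and control stallions overlapped and no difference passed the test. TSSK1B and TSSK4 gave no signal above background in either group.

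The tissue was testicular parenchyma of adult stallions that had spent 10 days at the clinic. The treated group was 3 stallions given 0.1 mg/kg of the glucocorticoid dexamethasone intravenously, and the control group was 3 stallions given the same volume of saline. Testes were collected after 12 h, and total RNA of each animal was read on 1 human CodeLink array, so a human probe had to capture a horse transcript. No allele or breed is stated, and the 6 arrays are 6 animals.

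The TSSK kinases and TSKS belong to the late part of sperm formation. After meiosis the round spermatid condenses its chromatin, builds an acrosome and a flagellum and then shuts down transcription, so that much of its later regulation rests on phosphorylation of stored proteins. The TSSK kinases are made almost only in these postmeiotic cells. TSSK1B and TSSK2 are close relatives that bind and phosphorylate TSKS, and mice without both kinases are infertile. TSSK4 acts in the flagellum, and TSSK6 is needed for condensation of sperm chromatin. CAMK4 is activated by calcium, calmodulin and an upstream kinase, and phosphorylates the transcription factors CREB and CREM. In spermatids it has been linked to the exchange of histones for protamines. STK31 joins a tudor domain, which binds methylated arginines, to a kinase-like domain.

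All 8 symbols are present as protein-coding genes in RefSeq's horse gene table for the assembly TB-T2T. TSSK2 and TSSK1B are neighbours there, with no other protein-coding gene between them. TSSK2 lies beside ESS2 and TSSK1B beside DGCR2. STK31 stands between FAM221A and NPY, CAMK4 between STARD4 and WDR36, TSKS between CPT1C and AP2A1, and TSSK4 between TM9SF1 and CHMP4A. Probe sequences were not used here, so the match of each human probe to its horse transcript was not examined, nor whether a TSSK2 or TSSK1B probe can capture the other transcript. A dim probe therefore does not show that a gene is silent.

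Across the arrays 22690 to 25537 of 53423 gene probes were above background. The slides carry 2 runs of numbers, of 4 and 2 arrays, each with both groups. Among 22 spermatid markers, 17 were tested. They include the acrosome gene ACR, the flagellum gene ODF1, the sheath gene AKAP4 and the transition protein gene TNP2, each above background on 6 arrays. ACR and ODF1 were dim, with mean log2 levels of 6.67 and 6.82 in the dexamethasone stallions. Spots of the kinase probes at background reached 6.40. The defining spermatid genes PRM2 and TNP1 were above background on 0 arrays. With TEKT1 and ACTL7A they make 4 of the 21 markers with a probe. The mean log2 level of the 17 tested markers was 8.08 to 8.13 in the dexamethasone stallions and 8.06 to 8.16 in the controls.

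Detection separated the 7 probes into distinct groups. Each spot has a signal strength, its mean intensity over its own noise level, and 1 is the border of the near-background flag. The TSSK1B probe (GE61186), the TSSK4 probe (GE896678) and the second CAMK4 probe (GE821105) were above background on 0 of 6 arrays, as were 44.5% of all gene probes. Their 18 spots had signal strengths of 0.597 to 0.993. Their mean intensities of 47 to 70.4 lay over local backgrounds of 41 to 55. The brightest of these spots was that of TSSK1B in control replicate 3, at 0.993, just under the border. No fold is given for these 3 probes, since both groups are at background. The TSSK4 probe and the second CAMK4 probe are annotated from expressed sequence tags, and the other 5 from curated messenger RNAs.

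**Figure D1:**
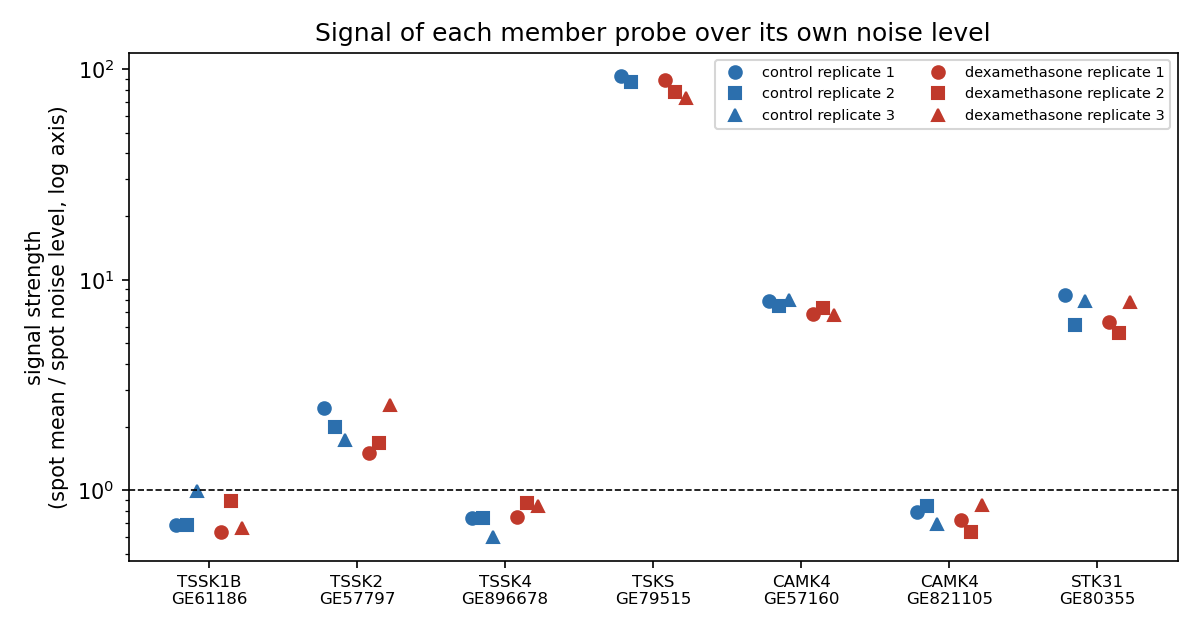
Signal strength (spot mean intensity over the spot's noise level, log axis) of the 7 probes in each stallion, with the border of the near-background flag dashed at 1. TSKS lies between 73.5 and 93.0, CAMK4 (GE57160) and STK31 between 5.60 and 8.46, TSSK2 between 1.495 and 2.55, and the 3 other probes at or below 0.993.

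The remaining 4 probes, 57.1% of the 7, were tested, against 46.0% of all gene probes. TSKS was far above its background, with spot means of 5874 to 8913 over backgrounds of 49 to 56. CAMK4 had spot means of 552 to 648 over 46 to 53, and STK31 462 to 771 over 43 to 55. TSSK2 was nearer to its background, at 140 to 209 over 43 to 54. Brightness depends on each probe's own binding, so these values do not rank the genes by expression.

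None of the 4 tested probes passed limma's adjusted p of 0.05, and 0 passed an unadjusted p of 0.05. Over all 24590 probes tested, 0.00407% passed the adjusted p (1 probe) and 3.29% the unadjusted p. The dexamethasone and control values overlapped for each of the 4, while 9.27% of all tested probes had groups that did not overlap. TSSK2 and CAMK4 had the higher mean in dexamethasone stallions and TSKS and STK31 the lower, by 0.04 to 0.17 on the log2 scale. The median difference of the 4 was -0.01 on the log2 scale, and that of all tested probes -0.01, with 47.5% of them higher in dexamethasone. With 3 animals per group, the smallest exact two-sided permutation p for a single probe is 0.1. Total RNA of whole parenchyma cannot tell fewer spermatids from less RNA per spermatid.

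TSSK2, the spermatid kinase that partners TSKS, had log2 levels of 7.12, 7.27 and 7.79 in dexamethasone replicates 1, 2 and 3. In the controls it had 7.32 in replicate 2 and 7.25 in replicate 3. The spot of control replicate 1 carried a quality flag of unstated meaning and was left out. Both the highest and the lowest stallion were treated, and the controls lay between them. The means were 7.40 ± 0.35 (SD, n = 3) and 7.28 ± 0.05 (SD, n = 2). The difference was 0.11 ± 0.18 (SE, 95% interval -0.29 to 0.52, limma adjusted p = 0.999). Without dexamethasone replicate 3 the difference was -0.08. On the arrays of the first run it was -0.12, and on the second, with 1 treated and 1 control stallion, 0.54. With the flagged spot kept, control replicate 1 was at 7.40, between the treated values, and the difference was 0.07 ± 0.15 (SE).

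TSKS, the substrate that anchors TSSK1B and TSSK2, had the brightest signal over background of the 7 probes. Its log2 levels were 13.09, 12.67 and 12.59 in dexamethasone replicates 1 to 3 and 12.95 and 12.76 in control replicates 1 and 2. Control replicate 3 had no value in the deposited file. The highest and the 2 lowest of the 5 values were all from treated stallions, so the treated group enclosed the controls. The means were 12.78 ± 0.27 (SD, n = 3) and 12.86 ± 0.14 (SD, n = 2). The difference was -0.07 ± 0.15 (SE, limma adjusted p = 0.999). Its 95% interval runs from -0.42 to 0.28, which is from 0.746-fold to 1.21-fold. Without dexamethasone replicate 1 it was -0.23, and without dexamethasone replicate 3 it was 0.03. On the arrays of the first run, the only one with TSKS values in both groups, it was 0.02.

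CAMK4, the calcium-responsive kinase upstream of CREM, varied least of the 4. Probe GE57160 stood at 9.15, 9.30 and 9.21 in dexamethasone replicates 1 to 3 and at 9.09, 9.14 and 9.30 in control replicates 1 to 3. All 6 stallions lay within 0.21 on the log2 scale, and the highest control matched the highest treated animal. The means were 9.22 ± 0.08 and 9.18 ± 0.11 (SD, n = 3 each). The difference was 0.04 ± 0.09 (SE, limma adjusted p = 0.999; exact two-sided permutation p = 0.6). Its 95% interval of -0.16 to 0.25, from 0.895-fold to 1.19-fold, was the narrowest of the 4. It was 0.11 on the 4 arrays of the first run and -0.09 on the 2 of the second. It was also below 0 with median scaling (-0.09) and with the authors' scaled intensity (-0.03).

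STK31, the tudor-domain kinase of germ cells, had the largest difference of the 4 and the smallest unadjusted p. Its log2 levels were 8.91, 9.07 and 9.40 in dexamethasone replicates 1 to 3 and 9.33, 9.04 and 9.50 in control replicates 1 to 3. The lowest value was a treated stallion and the highest a control, and the animals between them alternated. The means were 9.13 ± 0.25 and 9.29 ± 0.23 (SD, n = 3 each). The difference was -0.17 ± 0.15 (SE, limma unadjusted p = 0.288, adjusted p = 0.999; exact two-sided permutation p = 0.5). The 95% interval ran from -0.49 to 0.16, or 0.71-fold to 1.12-fold. The 2 highest values, 9.50 and 9.40, came from the 2 arrays of the second run of slides. With the run as a block the difference stayed at -0.17 with a smaller error of 0.10 (limma adjusted p = 0.998). It was -0.20 on the arrays of the first run and -0.10 on those of the second. Without each stallion in turn it ranged from -0.30 to -0.06, the latter without dexamethasone replicate 1 or control replicate 3.

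**Figure D2:**
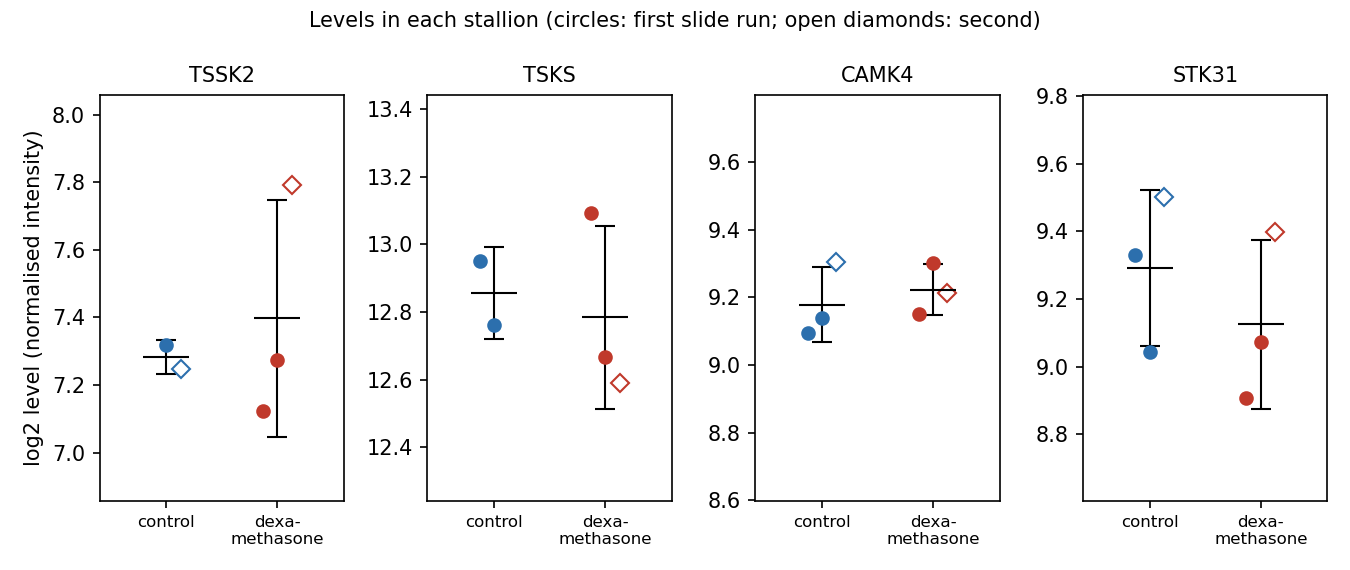
Normalised log2 level of each tested gene in every stallion with a usable spot. Bars show mean ± SD per group, all panels span 1.2 log2 units, filled circles are the first run of slides and open diamonds the second; the groups overlap in every panel.

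The spread within groups was wide for 3 of the 4 genes. With 1 array per stallion, differences between animals and between arrays cannot be told apart. The residual SD, the spread within groups after the fit, was 0.29 for TSSK2, 0.24 for STK31 and 0.23 for TSKS, against a median of 0.12 over all tested probes. These rank at the 96.3, 92.9 and 92.1 percentiles of all tested probes. CAMK4, at 0.09, was at the 32.5 percentile. The animals did not take the same order for each gene. Dexamethasone replicate 1 was lowest for TSSK2 and STK31 and highest for TSKS, and dexamethasone replicate 3 was highest for TSSK2 and lowest for TSKS.

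**Figure D3:**
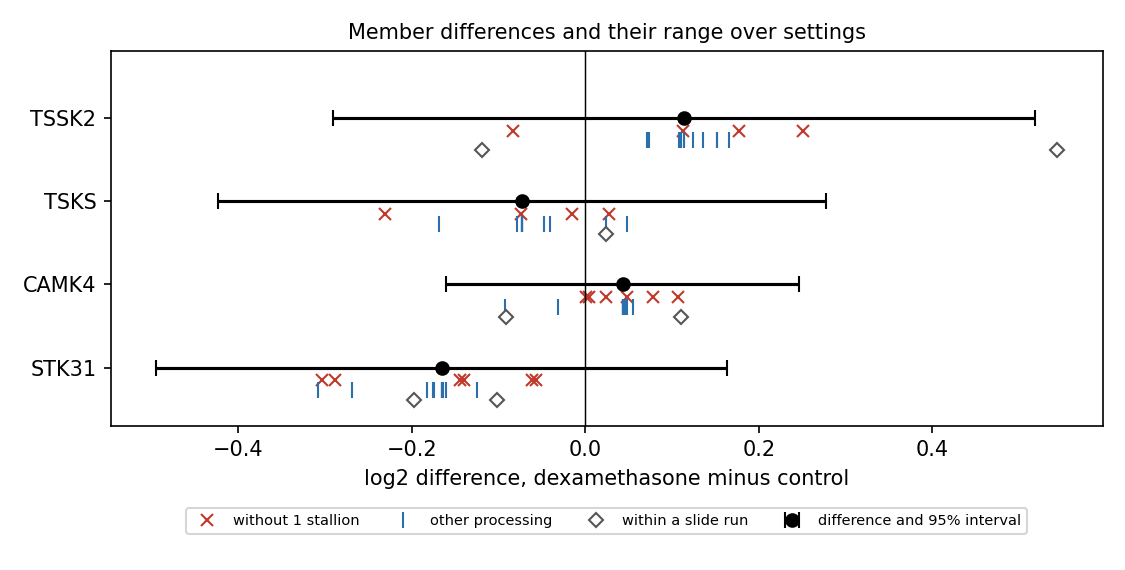
Log2 difference (dexamethasone minus control) of the 4 tested genes with 95% intervals, and the values without 1 stallion, under other processing and within a run of slides. Each interval includes 0; STK31 is the gene with every value below 0.

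The array profile of each gene was compared with 11009 other probes of single named genes that had values on all 6 arrays. Likeness was the root mean square difference of log2 levels after each probe was centred on its own mean. CAMK4 lay nearest to UBA6 (0.016) and RPLP1 (0.019) over 6 arrays, with 2227 probes within 0.1. STK31 lay nearest to CDIN1 (0.058) and ZDHHC11 (0.059), with 24 probes within 0.1. Over the 5 arrays with a value, TSSK2 lay nearest to WDR46 (0.027) and SRSF4 (0.033), and TSKS to TUT1 (0.031) and ESYT2 (0.036). Those 2 genes had 34 and 172 probes within 0.1. The median distance to all 11009 probes was 0.138 for CAMK4, 0.238 for STK31, 0.251 for TSSK2 and 0.216 for TSKS. The measure is not scaled by spread, so a flat profile such as that of CAMK4 lies close to many others. The counts within 0.1 therefore cannot be compared between the genes. None of these 8 neighbours passed limma's adjusted p, at 0.999 each. They were chosen for profiles like those of the kinase genes, so this follows from the choice and is no separate result. All probes of an array share its RNA quality, labelling and slide run, and the part of these in such likeness was not tested.

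Genes that act with the kinases were taken at their brightest probe. Of 10 partners and substrates of the TSSK kinases, 7 were tested, 5 higher and 2 lower, with a median of 0.07 and 0 past the adjusted or unadjusted p. That median was -0.03 without dexamethasone replicate 3, with 3 of 6 higher, and 0.00 on the arrays of the first run. TSACC, the cochaperone that activates TSSK6, was at 12.21 ± 0.15 in dexamethasone and 12.09 ± 0.14 in control stallions (SD, n = 3 each), a difference of 0.11 ± 0.11 (SE) that was 0.04 without dexamethasone replicate 1. HSP90AA1, the chaperone TSACC works with, differed by 0.11 ± 0.09 (SE), or 0.03 without control replicate 2, and a second probe by -0.06 ± 0.18. RANBP9, a scaffold protein above background on only 3 arrays, differed by 0.18 ± 0.12, and by 0.56 with background subtraction. Those arrays were dexamethasone replicates 2 and 3 and control replicate 1. RANBP9 thus passed the background filter mainly through treated stallions, so its place among the 5 higher genes supports nothing here. With median scaling, 1 of the 7 was higher and the median was -0.03, where that of all tested probes was -0.08. ODF2, a flagellar substrate of TSSK4, differed by 0.07 ± 0.13, and SPAG16, an axonemal substrate of TSSK2, by -0.07 ± 0.20. The chaperones HSP90AB1 and CDC37 were above background on 0 arrays.

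Of 18 genes of the CAMK4 cascade and other calmodulin kinases, 10 were tested, 2 higher and 8 lower. Their median was -0.15, beside -0.01 for all tested probes, and 0 passed limma's adjusted p. CAMK1, a relative of CAMK4, was the single member past the unadjusted p (0.0401, adjusted p = 0.999), where 1.81% of all tested probes were lower past it. It had levels of 6.74, 6.95 and 7.06 in the dexamethasone stallions and 7.09, 7.41 and 7.10 in the controls, so the groups did not overlap. The CAMK1 difference was -0.28 ± 0.12 (SE), -0.19 without dexamethasone replicate 1 and -0.17 without control replicate 2, where its unadjusted p was 0.145 and 0.166 in limma. With the run as a block its limma unadjusted p was 0.0515, so 0 of the 10 passed. Within the first run it was -0.40 and within the second -0.04. CAMK2D and CAMK2A, subunits of CaMKII, differed by -0.20 ± 0.11 and -0.15 ± 0.09 (SE), with overlapping groups, and both by -0.10 without dexamethasone replicate 1. CREM, the transcription factor that turns on postmeiotic genes, differed by 0.19 ± 0.11, and a second probe by 0.07 ± 0.08. CAMKK2, which activates CAMK4, differed by 0.09 ± 0.11, and CAMKK1 was above background on 0 arrays. On the arrays of the first run the median of these 10 genes was -0.15, and on those of the second -0.00, with 5 of the 10 higher. Without dexamethasone replicate 2 it was -0.09.

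Other kinases known from germ cells numbered 25, of which 14 were tested, 6 higher and 8 lower, with a median of -0.01 and 0 past either p. The human probe for PRKACG, a catalytic subunit of protein kinase A, differed by 0.11 ± 0.08 (SE). Whether the horse has this gene, and which horse transcript the probe captured, was not examined. DYRK4 differed by 0.10 ± 0.09 and the tyrosine kinase FER by -0.11 ± 0.12 (SE). Without control replicate 2 FER differed by 0.02. AURKC, the meiotic Aurora kinase, differed by 0.00 ± 0.09, and HASPIN, which phosphorylates histone H3, by 0.09 ± 0.13. TEX14, HIPK4, MAK and 6 others were above background on 0 arrays. With median scaling 13 of the 14 were lower, with a median of -0.08, which was also the median of all tested probes under that scaling.

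STK31 was set beside 13 tudor and PIWI genes, of which 5 were tested, all 5 lower, with a median of -0.06 and 0 past the adjusted or unadjusted p. MOV10L1, the helicase that starts piRNA processing, had 10.28, 9.80 and 10.16 in the dexamethasone stallions and 10.29, 10.32 and 10.26 in the controls. Its difference of -0.21 ± 0.12 (SE, limma adjusted p = 0.999) was -0.07 without dexamethasone replicate 2. TDRD9, a tudor-domain helicase, averaged 9.99 ± 0.03 in treated and 10.05 ± 0.01 in control animals (SD, n = 3 each). It differed by -0.06 ± 0.08 (SE), and the groups did not overlap. MAEL differed by -0.07 ± 0.10 and PIWIL1, the PIWI protein of late spermatocytes and spermatids, by -0.02 ± 0.10. With cyclic loess and within each run of slides, 4 of the 5 were lower. PIWIL4, TDRD1, TDRD5, TDRKH and DDX4 were above background on 0 arrays.

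**Figure D4:**
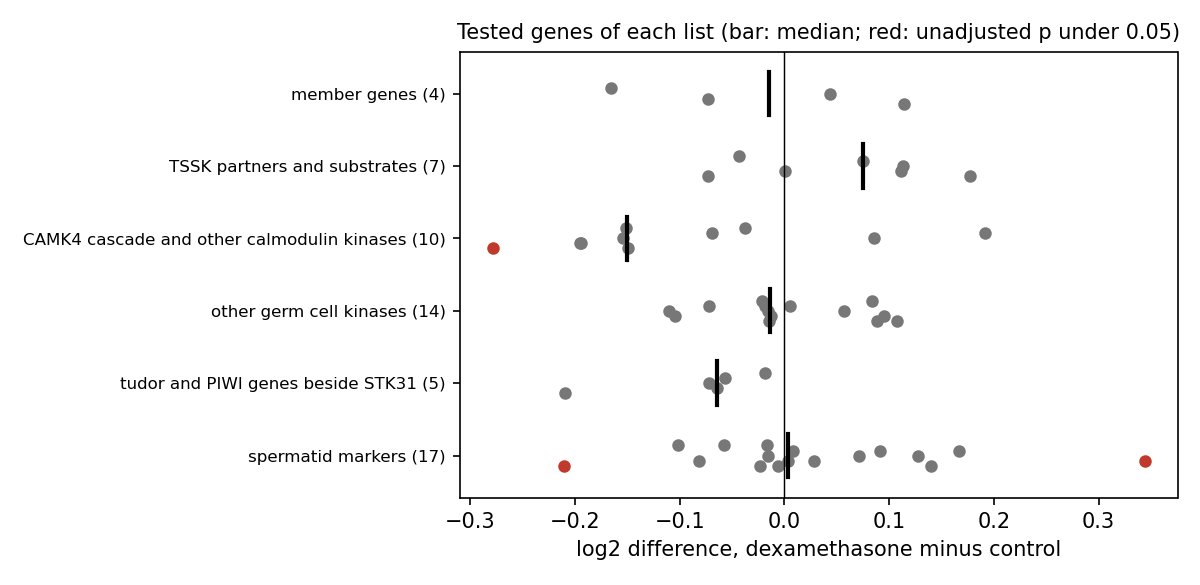
Log2 differences of the tested genes in each list (dexamethasone minus control), each dot 1 gene at its brightest probe, with the list median as a bar and unadjusted p under 0.05 in red. The medians are -0.01 for the kinases and TSKS, 0.07 for TSSK partners, -0.15 for calmodulin kinases, -0.01 for other germ cell kinases, -0.06 for tudor and PIWI genes and 0.00 for spermatid markers.

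Over these 4 lists together, 36 of 66 genes were tested, 13 higher and 23 lower, where 47.5% of all tested probes were higher. The split moved with the setting, as given per list above. Not every untested gene was dim, since some had no named probe. Of the 18 genes of the calmodulin kinase list, 11 had one. Of the 36 genes, 1 (2.78%) passed the unadjusted p, beside 3.29% of all probes. This count moved with the setting. With median scaling it was 6 of 36, beside 1798 of all 24590 probes. Without dexamethasone replicate 1 it was 4 of 35, beside 870 of 23111. Without dexamethasone replicate 3 it was 4 of 35, beside 1054 of 23093. It was 0 with the run as a block and without control replicate 2, and 1 in the other refitted settings. Groups did not overlap for 3 of the 36 (8.33%), beside 9.27% of all tested probes. These were CAMK1, TDRD9 and PRKACG, with the limit on its probe given above. Markers of spermatids, where the TSSK kinases are made, had 9 of 17 higher and a median of 0.00. TEKT2, a flagellar filament protein, had 10.91, 11.31 and 10.77 in the dexamethasone stallions and 10.52, 10.61 and 10.84 in the controls, a difference of 0.34 ± 0.14 (SE, limma unadjusted p = 0.0359, adjusted p = 0.999). It was 0.19 without dexamethasone replicate 2 (limma unadjusted p = 0.141), 0.20 with median scaling and -0.06 within the second run. Of all tested probes 1.47% were higher past the unadjusted p. ZPBP, an acrosomal protein near background in 2 treated stallions, differed by -0.21 ± 0.08 (SE), and by -0.56 both with background subtraction and with the authors' scaled intensity. It passed the background filter mainly through its control spots, so its place among the genes past the unadjusted p supports nothing here. SPATA19 differed by 0.13 ± 0.09 (SE). Spermatocyte markers had a median of -0.06 over 11 tested genes, with MSH5 at -0.20 ± 0.09 (SE, limma unadjusted p = 0.0413, adjusted p = 0.999). Of the other cell types, the medians were 0.00 for spermatogonia (9 genes), -0.05 for Sertoli (9), -0.04 for Leydig (6), -0.20 for peritubular myoid (3), -0.08 for endothelial (5), -0.01 for macrophages and lymphocytes (5) and -0.02 for erythrocytes (2). The myoid median is the value of CALD1, a dim probe above background on 4 arrays. Its means were 6.38 in dexamethasone and 6.58 in control stallions. With no filter on background the myoid median was -0.02 over 5 genes. Single markers stood apart from these medians. INSL3, a Leydig cell hormone, differed by -1.21 ± 0.23 (SE, limma unadjusted p = 0.000389, adjusted p = 0.999). CLDN11, a Sertoli cell junction protein, differed by 0.48 ± 0.13 (SE, n = 3 and 2, limma unadjusted p = 0.00423, adjusted p = 0.999). MYLK, a contractile kinase of myoid cells, differed by -0.22 ± 0.08 (SE, limma unadjusted p = 0.0222, adjusted p = 0.999). The groups did not overlap for these 3 markers, each with the smallest p of its list. Groups also did not overlap for ZPBP, MSH5, the spermatocyte marker CCNA1 and the spermatogonia marker ZBTB16. Of all tested probes, 9.27% had groups that did not overlap and 3.29% passed the unadjusted p. The part of these cell types in the kinase values was not tested.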

How the data were processed

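Testis RNA of 6 stallions was labelled with Alexa-647 and read on 1-colour human CodeLink arrays, per the labels' protocols. For the scanner's software and its rule for flags, nothing is stated in the sources used here. The authors deposited spot mean and local background intensity, a scaled intensity (background-subtracted and divided by 1 constant per array) and a signal strength score. The score deposited for each spot equals its mean over the background median plus 1.5 background SD, tested on the files.

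Spots without a value (353 to 610 per array) and spots with flags other than good, near background or saturated (320 to 1189) were treated as missing. Probe names printed more than once were left out as controls. Intensities were corrected with normexp (offset 50), quantile normalised and taken to log2. A probe was tested if above background on at least 3 arrays with at least 2 values per group. limma 3.58.1 in R 4.3.3 (lmFit, eBayes) tested dexamethasone minus control (two-sided, no covariates), and p-values were adjusted by Benjamini-Hochberg over the 24590 probes. Intervals are 95%. The fit was tested on simulated data. Python 3.11.15 with matplotlib 3.10.9 drew the figures. The number of arrays limits the precision.

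The kinase genes, the related lists and the settings were chosen with earlier results of these data known. Named genes were every kinase probe, the 3 genes of smallest p in each related list and among spermatid markers, and the 2 nearest profiles per kinase gene; the other named list genes were chosen for their role, after their values were seen. Replicates were numbered in sample order within a group and pair no animals.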

Additional observations from a re-analysis of the deposited data

How the results depend on the processing

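No kinase probe and no related list gene passed limma's adjusted p in any of the 18 refitted settings, and no kinase probe passed the unadjusted p. The median of the kinase genes was -0.01 and moved to -0.13 with median scaling, where that of all tested probes was -0.0834. The kinase median ranged from -0.132 to 0.0109 without each stallion in turn. It was -0.13 without control replicate 2, where TSSK2 and TSKS had too few values to be tested. The number of probes higher in dexamethasone, 2 of 4, was 1 with median scaling, with the authors' scaled intensity, with the filter of all 6 arrays (2 probes tested) and within the second run of slides (3 probes), and 1 to 2 without each stallion in turn. It was 3 of 4 with cyclic loess and with the run as a block, and 3 of 7 with no filter on background.

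Changes of sign under median scaling were CAMK4 at -0.0921, HSP90AA1 at -0.0314, PRKACG at -0.00927 and TSACC at -0.0197. CAMK4 was at -0.0310 with the authors' scaled intensity. The median of all tested probes was itself lower in these settings, at -0.0834 with median scaling and -0.0653 with the authors' scaled intensity. Within the second run of slides CAMK4 was at -0.0908, FER at 0.0916, TEKT2 at -0.0638 and TSACC at -0.0361, and within the first run TSKS was at 0.0237 and TSSK2 at -0.119. TSKS was at 0.0485 with cyclic loess and 0.0237 with the run as a block. Without each stallion in turn, TSKS ranged from -0.231 to 0.0278, TSSK2 from -0.0837 to 0.251 and FER from -0.232 to 0.0244. The cause of these changes was not tested. With a stricter rule, spot mean above background plus 2 background SD, the same 4 probes were detected. No paired analysis was possible because the labels give no replicate numbers shared between groups. Offset and background limit the dim TSSK2 probe, whose difference was 0.15 with background subtraction.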
